A study of Mus musculus with 6 samples.

Results

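A set of 10 genes was examined in mouse hearts with a cardiotonic steroid (CTS)-resistant or CTS-sensitive Na/K-ATPase α1. It consisted of the antisense RNA gene Atcayos, its chromosome 10 neighbours Atcay and Nmrk2, and the NAD metabolism genes Nmrk1, Nampt, Nmnat1, Nmnat3, Nadk, Nadk2 and Nnt. The members were taken by gene name from a table of 54532 genes, where they filled 11 rows because Nnt is listed under 2 identifiers. The set was selected on gene counts and fold changes of this same genotype comparison, so the differences of its members between genotypes are given as a description, without a test. RNA was from whole hearts of 3-month-old male C57BL/6 mice, 3 per genotype. The Na/K-ATPase a1r/ra2s/s (resistant) mice carried the rodent α1 with low CTS affinity and were mice 368, 369 and 370. Mice 379, 380 and 381 were Na/K-ATPase a1s/sa2s/s (sensitive), with an α1 substituted in the germ line, and therefore in all cell types, to bind CTS with high affinity. Both genotypes shared the CTS-sensitive α2, and values are listed in this order of mice throughout. Nothing in the labels tied the hearts of the 2 genotypes into pairs.

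NAD carries electrons for the respiratory chain and is also consumed by sirtuins, PARPs and NAD glycohydrolases, so that cells rebuild it continuously from nicotinamide or from nicotinamide riboside. Nampt makes nicotinamide mononucleotide from nicotinamide, whereas the kinases encoded by Nmrk1 and Nmrk2 make it from nicotinamide riboside, and NMNAT enzymes turn it into NAD. Nmrk2 is a muscle-enriched kinase that is known to be induced in failing hearts, and Nmrk1 is widely expressed. NAD kinases form NADP, and the mitochondrial transhydrogenase encoded by Nnt uses the proton gradient to form NADPH. Atcay encodes caytaxin, a protein known mainly from neurons, and Atcayos is annotated as an antisense RNA on the opposite strand.

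Libraries held 19309312 to 20470065 counts, and 14866 genes passed the filter on low counts, all 10 members among them. Mitochondrially encoded genes took 23.4% to 24.4% of counts in resistant and 25.0% to 26.0% in sensitive hearts. The genotypes did not overlap in this share. With these genes and the hemoglobin genes left out, the log2 fold changes of sensitive over resistant (log2FC) of Atcayos, Nmrk2 and Nampt were -1.07, -0.38 and 0.29, the same to 2 decimals as with them. Genotypes are those of the labels. Levels are given as CPM (counts scaled to library size by the TMM method). Ventricular cardiomyocyte markers had a summed level of 45409 to 56352 CPM in resistant and 50125 to 54357 CPM in sensitive hearts. Since these were whole hearts, fewer cells of a type and less RNA per cell cannot be told apart.

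On chromosome 10, Atcayos overlaps both Nmrk2 and Atcay, which do not overlap each other. On mm10 (GRCm38), Atcayos (ENSMUSG00000085779) runs on the plus strand from 81194609 to 81210877. Nmrk2 (ENSMUSG00000004939) lies on the minus strand from 81198170 to 81202051, wholly inside the span of Atcayos. Atcay (ENSMUSG00000034958) lies on the minus strand from 81204508 to 81230833, and the distal exons of Atcayos fall inside it. GENCODE M21 gives Atcayos 3 transcripts, whose first exons all end at 81194722. One transcript ends in an exon that reaches 270 bp into the last exon of Nmrk2, from 81198170 to 81198439, in the 3′ UTR. These bases are 14.6% of the exonic length of Nmrk2. With Atcay, Atcayos shared 432 exonic bp in 3 pieces, of which 191 bp were coding in Atcay, and another 2593 bp of Atcayos exons lay in Atcay introns.

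**Figure D1:**
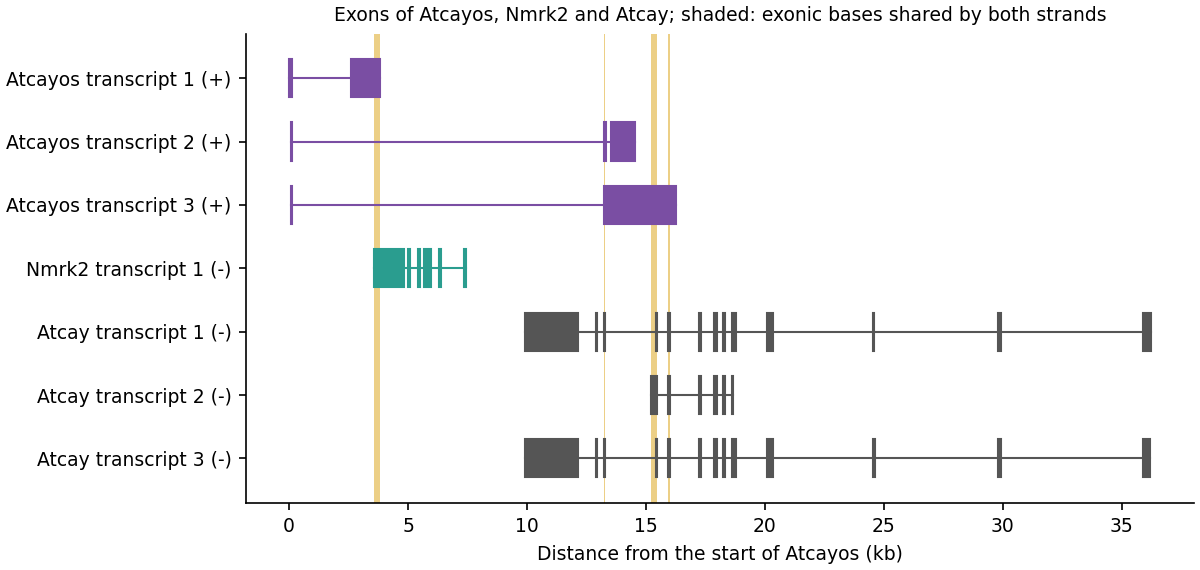
Annotated transcripts of Atcayos, Nmrk2 and Atcay against the distance from the start of Atcayos in kb, with boxes for exons, lines for introns and the strand in brackets. Shaded bands mark exonic bases on both strands, which came to 270 bp between Atcayos and Nmrk2 and 432 bp between Atcayos and Atcay.

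Whether the counting used strand was read from the table itself. Of 31 genes with at least 300 exonic bp lying wholly inside the exons of a well-expressed gene (at least 1000 counts per kb over the 6 hearts) on the opposite strand, 30 had no count in any heart. Of 355 genes lying inside such a gene but sharing no exonic base with any gene, 331 had counts. Reads in segments that are exonic on both strands were therefore credited to neither gene. Reads of Atcayos and of its partners cannot be told apart by strand, and the counts of Atcayos, Nmrk2 and Atcay come from 3673, 1584 and 3564 exonic bp that no other gene shares. Reads from unspliced Atcay RNA could fall in the Atcayos exons that lie in its introns. The Atcayos intron between 81194722 and 81207853 holds all of Nmrk2. It also holds exons 12 and 13 of the longer Atcay transcripts, the last of them, and part of exon 11. Reads from unspliced Atcayos RNA could thus be counted for Nmrk2 or Atcay. The part of such reads in the values of these genes was not tested.

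The start regions of Atcayos and Nmrk2 are shown because these overlapping genes were both lower in sensitive hearts. They are the 300 bases from 250 before to 50 after the start in RefSeq, on GRCm38.p6 and read 5′ to 3′ along the gene. Capitals mark matches, on either strand, to the TATA box TATAAA, the nuclear receptor half-site AGGTCA, the GC box GGGCGG, the CCAAT box, the E-box CACGTG or the AP-1 site TGACTCA. Such windows were found for 7 of the 10 members.
Atcayos, chr10:81194441-81194740, plus strand: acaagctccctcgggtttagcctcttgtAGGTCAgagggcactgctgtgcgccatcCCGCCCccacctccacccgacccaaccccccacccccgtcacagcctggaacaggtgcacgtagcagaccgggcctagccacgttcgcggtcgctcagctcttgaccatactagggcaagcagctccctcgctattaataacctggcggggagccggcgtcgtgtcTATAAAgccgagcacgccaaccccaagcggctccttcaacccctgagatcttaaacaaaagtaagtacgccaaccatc
Nmrk2, chr10:81201988-81202287, minus strand: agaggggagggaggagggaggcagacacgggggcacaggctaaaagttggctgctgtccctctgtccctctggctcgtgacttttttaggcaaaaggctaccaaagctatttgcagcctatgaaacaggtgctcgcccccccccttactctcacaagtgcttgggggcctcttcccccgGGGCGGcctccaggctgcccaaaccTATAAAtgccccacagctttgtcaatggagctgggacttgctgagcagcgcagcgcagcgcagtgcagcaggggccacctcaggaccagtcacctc
Both windows held TATAAA, starting 28 bases before the RefSeq start in Atcayos and 46 bases before it in Nmrk2. For both genes the RefSeq start lies inside the gene coordinates given above. The Atcayos TATAAA falls within the GENCODE first exon that runs from 81194609 to 81194722. This motif was present in 13.6% of 32817 windows of this length over all RefSeq genes. GGGCGG was also in both, and in 35.6% of all windows. AGGTCA was in the Atcayos window, 222 bases before the start, and in 16.3% of all windows. The windows of both genes were 60.7% G and C, where the median of all windows was 52.7%. A match is a description of the letters and not of a bound site.

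Atcayos had the largest difference of the 10 genes. It had 1098, 1106 and 1020 counts in resistant hearts and 528, 413 and 512 counts in sensitive hearts. On the normalised scale this was 52.4, 52.8 and 51.2 CPM against 26.2, 21.7 and 26.6 CPM. Every sensitive heart was far below every resistant heart, and the resistant hearts were close together. The means were 52.2 ± 0.825 and 24.8 ± 2.70 CPM (SD, n = 3), a level 2.10-fold lower in sensitive hearts. The log2FC was -1.07 with a standard error (SE) of 0.09, and it lay between -1.12 and -0.98 over the 13 alternatives tried. Atcayos was the only member, 1 of 10, that edgeR's quasi-likelihood test called (adjusted p below the threshold of 0.05), where 1.44% of all tested genes were called in either direction, 0.659% as lower and 0.780% as higher in sensitive hearts. DESeq2 called 3 members, Atcayos, Atcay and Nampt, where it called 3.65% of the 11038 genes that it gave an adjusted p. It gave none to Nnt. As this comparison was used to choose the members, nothing is read from these counts.

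Atcay, on the strand opposite to Atcayos, was also lower in sensitive hearts. Its counts were 215, 145 and 195 in resistant and 128, 73 and 91 in sensitive hearts, or 10.3, 6.93 and 9.80 against 6.35, 3.84 and 4.72 CPM. The lowest resistant heart stood just above the highest sensitive heart, so the genotypes did not overlap. The log2FC was -0.85 (SE 0.21), with a range of -1.07 to -0.69 over the alternatives. Markers of neurons, where caytaxin is best known, gave 9.60 to 14.2 CPM summed over 5 genes in resistant hearts and 11.5 to 12.6 CPM in sensitive hearts. Of these, Snap25 and Th had no count in any heart.

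Nmrk2, the muscle nicotinamide riboside kinase, was lower by a smaller amount. It had 383, 441 and 427 counts in resistant and 334, 282 and 297 counts in sensitive hearts, which gave 18.3, 21.1 and 21.5 against 16.6, 14.8 and 15.4 CPM. All 3 sensitive hearts were below the lowest resistant heart, mouse 368. Means were 20.3 ± 1.73 and 15.6 ± 0.891 CPM (SD, n = 3), and the log2FC was -0.38 (SE 0.11), or 1.30-fold lower. It ranged from -0.44 to -0.33 over the alternatives. Skeletal muscle markers were near 0, with 2.56 to 3.11 CPM summed over 8 genes in resistant and 2.10 to 3.87 CPM in sensitive hearts, and Myh4 had no count in any heart.

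**Figure D2:**
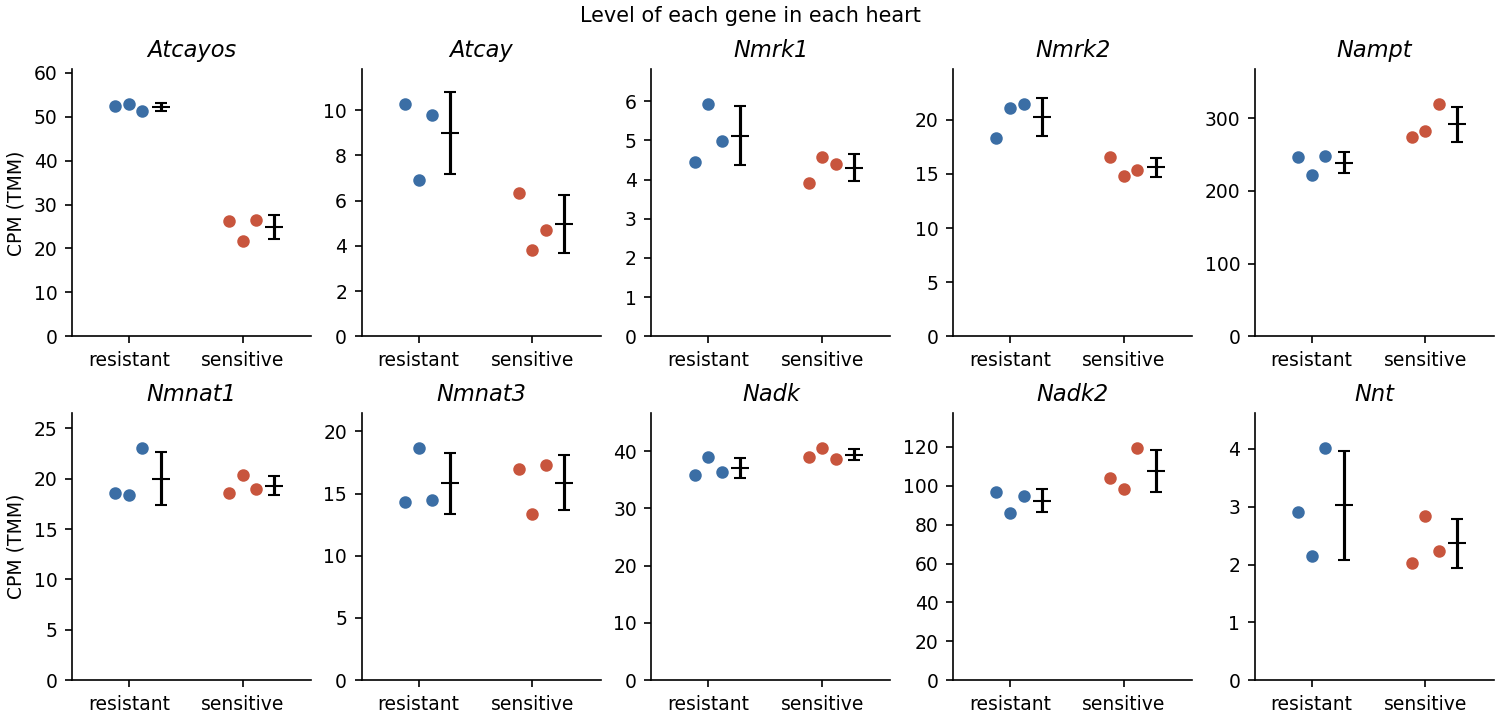
Level of each of the 10 genes in CPM (TMM-normalised, axes from 0) in each heart, with blue points for resistant and red points for sensitive hearts, and black bars for the mean and SD of 3 hearts. Atcayos, Atcay and Nmrk2 are lower and Nampt and Nadk2 higher in all sensitive hearts, and the genotypes overlap in the other 5 genes.

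Among the 3 genes of the locus, Nmrk2 differed by less than Atcayos. Atcayos took 64.7%, 65.4% and 62.1% of the counts of the 3 genes in resistant hearts and 53.3%, 53.8% and 56.9% in sensitive hearts, while the Nmrk2 share went from 22.6%, 26.1% and 26.0% to 33.7%, 36.7% and 33.0%. Neither share overlapped between genotypes. The Atcay share did overlap, at 12.7%, 8.57% and 11.9% in resistant and 12.9%, 9.51% and 10.1% in sensitive hearts. Per kb of exonic length, Atcayos had 1.10 ± 0.105 times the level of Nmrk2 in resistant hearts and 0.674 ± 0.0551 times in sensitive hearts (SD, n = 3). The ratio of Atcayos to Atcay overlapped between the genotypes, at 5.47 ± 1.30 and 4.69 ± 0.80 (SD, n = 3).

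The genes around the locus were then compared, as the position of a gene was no part of the choice beyond the 3 members. Within 250 kb of Atcayos the table lists 41 other genes, of which 23 were tested, 12 with a positive and 11 with a negative log2FC and a median of 0.01. The median over all tested genes was -0.01. None of the 23 was called by edgeR's quasi-likelihood test, against 1.44% of all tested genes. DESeq2 also called none, but it gave no adjusted p to some of them, including Gng7 and Matk. An unadjusted p under 0.05 was found for 2150 of all 14866 tested genes and for 3 of these 23, Gng7, Map2k2 and Matk, of which Gng7 and Map2k2 were named after their values were seen. Dapk3, which encodes a death-associated protein kinase and ends just before Atcayos starts, had 20.4, 17.2 and 18.6 CPM in resistant and 21.6, 22.7 and 20.9 CPM in sensitive hearts. All its sensitive hearts were above all its resistant hearts, the opposite order to Atcayos, with a log2FC of 0.21 (SE 0.10, adjusted p = 0.355 in edgeR). Eef2, the gene of translation elongation factor 2, had a log2FC of 0.14 (SE 0.07, adjusted p = 0.36 in edgeR). The gene 4930442H23Rik, which overlaps the start of Dapk3 on the opposite strand, had 1 count in 1 heart.

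On the other side, Zfr2 starts 22278 bp after the end of Atcayos and had 3.06 ± 0.746 CPM in resistant and 3.76 ± 0.774 CPM in sensitive hearts (SD, n = 3), a log2FC of 0.30 (SE 0.26, adjusted p = 0.639 in edgeR). Matk, which encodes a tyrosine kinase that acts on Src family kinases, was low at 10 to 41 counts per heart. Its log2FC was -1.01 (SE 0.41, adjusted p = 0.265 in edgeR). Mrpl54, a mitochondrial ribosomal protein gene, had a log2FC of 0.21 (SE 0.12, adjusted p = 0.439 in edgeR). The nearest tested gene on each side, Dapk3 and Zfr2, thus had a positive value, though the genotypes overlapped in Zfr2. The members between these genes had negative values, and so had Matk, next after Zfr2, without overlap between genotypes.

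**Figure D3:**
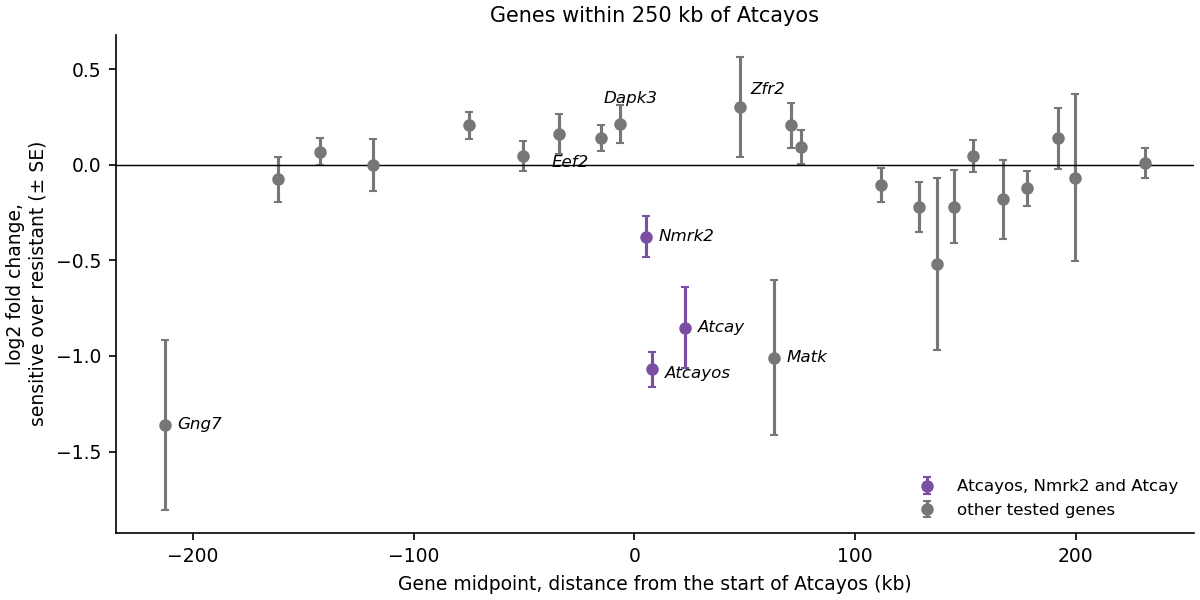
Log2 fold change of sensitive over resistant hearts, with its standard error, for the 26 tested genes within 250 kb of Atcayos, against the distance of the gene midpoint from the start of Atcayos in kb. Atcayos, Atcay and Nmrk2 (purple) lie at -1.07, -0.85 and -0.38, and the other genes (grey) lie on both sides of 0, from -1.36 for Gng7 to 0.30 for Zfr2.

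The genes whose profile over the 6 hearts was closest to that of Atcayos were named by the root mean square difference of centred log2 CPM, among 13302 other genes with a mean of at least 1 CPM. Atcayos itself had an SD of 0.60 on this scale. Hps1, involved in the biogenesis of lysosome-related organelles, came first with a difference of 0.13. Basp1, a membrane-associated signalling protein gene, also had 0.13, and Ccnd1, the cyclin D1 gene, had 0.14. Ccnd1 had 55.8 and 28.5 CPM on average in resistant and sensitive hearts. Atcay ranked 51 of 13302 by likeness to Atcayos, with a difference of 0.26, and Nmrk2 ranked 373, with 0.37. In the reverse direction, by likeness to Nmrk2, Atcay ranked 11010 and Atcayos 11036 of 13302. The profiles were centred but not scaled, so these ranks depend on the size of the differences as well as on their direction. Atcayos, Atcay and Nmrk2 were all lower in every sensitive heart than in any resistant heart. For Nmrk2, whose SD was 0.23, the closest genes were Acsl6, Enpp5 and Fbxo10, with differences of 0.04, 0.05 and 0.05. Acsl6 encodes an acyl-CoA synthetase and Fbxo10 an F-box protein. These profiles share the same 6 hearts and the same scaling, and they hold the genotype difference that was used to choose the members. The ranks of the members thus restate that difference, and nothing further is read from them.

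Among the genes that make NAD from nicotinamide, Nampt, which encodes the rate-limiting salvage enzyme, was higher in sensitive hearts. It had 247, 222 and 247 CPM in resistant hearts and 274, 282 and 319 CPM in sensitive hearts. The genotypes did not overlap, and mouse 381 was highest. Means were 239 ± 14.4 and 292 ± 24.1 CPM (SD, n = 3), a log2FC of 0.29 (SE 0.08) or 1.22-fold. It stayed between 0.22 and 0.34 over the alternatives. Nampt was thus higher where Nmrk2 was lower. Per kb, the level of Nampt was 4.96, 3.87 and 4.23 times that of Nmrk2 in resistant hearts. In sensitive hearts it was 6.07, 6.98 and 7.61 times. The lack of overlap in this ratio follows from the opposite differences of both genes.

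The other salvage members did not separate the genotypes. Nmrk1, the widely expressed riboside kinase, had 4.44, 5.92 and 4.97 CPM in resistant and 3.92, 4.58 and 4.41 CPM in sensitive hearts, with a log2FC of -0.25 (SE 0.20) that was -0.13 without mouse 369. Per kb, Nmrk2 had 5.85 to 7.78 times the level of Nmrk1 over the 6 hearts, and this ratio overlapped between genotypes. Nmnat1, the nuclear NMN adenylyltransferase, had 18.6, 18.3 and 23.1 CPM against 18.6, 20.4 and 18.9 CPM, so that only mouse 370 stood out. Its log2FC was -0.05 (SE 0.11) and became 0.07 without mouse 370. Nmnat3, whose protein is mitochondrial, had 14.3, 18.7 and 14.5 CPM against 17.0, 13.4 and 17.3 CPM. Its log2FC of 0.01 (SE 0.14) had a negative sign under 5 of the 13 alternatives.

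Nadk2, the mitochondrial NAD kinase, was higher in sensitive hearts. It had 96.7, 85.9 and 94.5 CPM in resistant and 104, 98.6 and 119.5 CPM in sensitive hearts. The gap between the genotypes was narrow, since mouse 380 with 98.6 CPM was next to mouse 368 with 96.7 CPM. Its log2FC was 0.22 (SE 0.08), with a range of 0.14 to 0.28 over the alternatives and the lowest value without mouse 381. Nadk, the cytosolic kinase, had 35.8, 39.0 and 36.3 CPM against 39.0, 40.6 and 38.6 CPM, with overlap and a log2FC of 0.09 (SE 0.08). Nadk2 had 1.61 to 2.26 times the level of Nadk per kb over the 6 hearts. In all, 5 of the 10 members did not overlap between genotypes, where 20.0% of all tested genes did not in either direction and 9.98% were lower in sensitive hearts without overlap, and again nothing is read from this count.

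Nnt was the lowest of the members, with 61, 45 and 80 counts in resistant and 41, 54 and 43 counts in sensitive hearts. This made 2.91, 2.15 and 4.02 CPM against 2.04, 2.84 and 2.23 CPM, which overlapped (log2FC -0.35, SE 0.29). Single hearts decided this value, which was -0.09 without mouse 370 and -0.54 without mouse 369. The table lists Nnt on the minus strand of chromosome 13 under ENSMUSG00000025453, from 119335448 to 119408997, and again under ENSMUSG00000116207 inside this span. All 3339 exonic bp of the latter are shared with the former, and the latter had no count in any heart. Reads in these bases were credited to neither, so 47.4% of the exonic length of Nnt could give it no count, and the level of Nnt is understated by an amount the counts do not show. As background, the C57BL/6J substrain carries a deletion in Nnt and other C57BL/6 substrains do not. The labels give C57BL/6 without a substrain.

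Levels of different genes were compared as CPM per kb of exonic length. Nampt was highest with a median of 51.6 over the 6 hearts, followed by Nadk2 with 19.1, Nadk with 10.4, Nmrk2 with 9.40, Atcayos with 8.89, Nmnat1 with 6.18, Nmnat3 with 3.14, Atcay with 1.66, Nmrk1 with 1.35 and Nnt with 0.36. Of the 9 pairs of neighbours in this order, 5 had ranges over the hearts that did not overlap. The ranges of Nadk, Nmrk2, Atcayos and Nmnat1 overlapped each with the next, as did those of Atcay and Nmrk1. Atcayos changed its place with the genotype. With a mean of 11.9 it was above Nmrk2 and Nadk in resistant hearts, and with 5.68 it was below Nmnat1 in sensitive hearts. Dividing by the exonic length that no other gene shares, an alternative chosen after seeing the data, raised Nmrk2 to a median of 11.0 and Atcayos to 10.6 and placed both above Nadk, and 4 pairs were then apart. It also raised Nnt to a median of 0.69. The range of Nnt then overlapped that of Nmrk1, and the range of Nmnat3 overlapped that of Atcay.

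**Figure D4:**
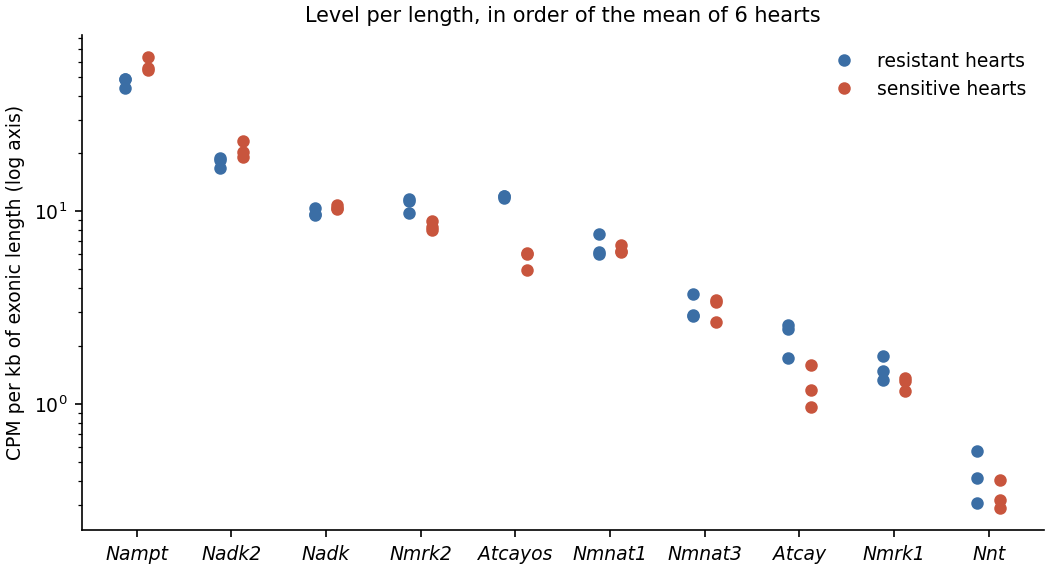
Level of each gene as CPM per kb of exonic length on a log axis, in order of the mean over 6 hearts, with blue points for the 3 resistant and red points for the 3 sensitive hearts. Nampt is highest with a median of 51.6 and Nnt lowest with 0.36, and Atcayos spans the levels from above Nmrk2 to below Nmnat1.

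Further genes of NAD metabolism were counted from lists of enzymes that make, carry or use NAD and NADP. The lists held 81 genes besides the members, of which 71 were tested, 39 with a positive and 32 with a negative log2FC. Their median was 0.02, where that of all tested genes was -0.01. None was called by edgeR's quasi-likelihood test, where 1.44% of all tested genes were. An unadjusted p under 0.05 was found for 19 of the 71, a larger share than the 2150 of all 14866 tested genes. The lists were chosen with earlier results of these data known, so nothing is read from this share. The genotypes did not overlap in 15 of the 71, near the share of 20.0% over all tested genes. DESeq2, which called 3.65% of the 11038 genes that it gave an adjusted p, called 4 of the lists, all higher in sensitive hearts. They were Me1, Adprhl1, Art3 and Art5, and Art3 was named after its values were seen.

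Me1, the cytosolic malic enzyme that forms NADPH, came closest to the threshold in edgeR. It had 141, 153 and 144 CPM in resistant and 180, 179 and 170 CPM in sensitive hearts. The genotypes were well apart, with a log2FC of 0.27 (SE 0.07, adjusted p = 0.0623 in edgeR, 0.00372 by DESeq2). Me2, a mitochondrial malic enzyme, had the opposite sign at -0.37 (SE 0.14, adjusted p = 0.22 in edgeR). Among the 11 NADPH-forming dehydrogenases, 7 had a positive and 4 a negative log2FC. Idh2, the mitochondrial isocitrate dehydrogenase of this list, was one of the 6 genes called when no filter on low counts was used, at an adjusted p of 0.0442, and was named after its values were seen.

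Of the 11 genes for ecto ADP-ribosyltransferases and for enzymes that remove ADP-ribose, 9 had a positive log2FC, and the median was 0.12. Art5, an ADP-ribosyltransferase gene, had 16.0, 16.3 and 16.6 CPM in resistant and 22.9, 18.8 and 24.9 CPM in sensitive hearts (log2FC 0.45, SE 0.11, adjusted p = 0.0705 in edgeR, 0.0421 by DESeq2). All sensitive hearts were higher, and mouse 380 was the closest to the resistant level. Adprhl1, a heart-enriched gene related to ADP-ribosylhydrolases, had 440, 363 and 457 CPM against 553, 477 and 530 CPM (log2FC 0.31, SE 0.09, adjusted p = 0.115 in edgeR, 0.0115 by DESeq2). Art3, of the ADP-ribosyltransferase family, had 274, 213 and 267 CPM against 286, 313 and 339 CPM (log2FC 0.31, SE 0.09, adjusted p = 0.129 in edgeR, 0.0217 by DESeq2).

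The NAD-consuming sirtuins and PARPs had small values of both signs. Of the 7 sirtuin genes, 4 were positive and 3 negative, and the smallest p were those of Sirt2 with a log2FC of 0.16 and Sirt5 with -0.28 (adjusted p = 0.314 and 0.327 in edgeR). Of the 15 PARP family genes, 11 were negative, with a median of -0.11. Parp14 had -0.26 and Parp12 -0.20 (adjusted p = 0.286 and 0.326 in edgeR). Among enzymes that cleave NAD, Nudt12, an NADH pyrophosphatase gene, had 20.3 ± 1.29 and 25.2 ± 1.19 CPM (SD, n = 3), a log2FC of 0.31 (adjusted p = 0.143 in edgeR). Bst1, an ectoenzyme of the CD38 family, was low at 1.99 ± 1.13 and 0.788 ± 0.268 CPM (SD, n = 3), with -1.34 (SE 0.45, adjusted p = 0.172 in edgeR).

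Of the 11 genes that make NAD from nicotinic acid or tryptophan, 7 did not pass the filter on low counts. Nadsyn1, the NAD synthetase gene, and Afmid, of the kynurenine pathway, had log2FC values of -0.18 and -0.36 (adjusted p = 0.731 and 0.666 in edgeR). Of the other salvage genes, Slc12a8 and Nnmt had -0.95 and -0.33 with SEs of 0.66 and 0.47 (adjusted p = 0.544 and 0.802 in edgeR). Slc25a51, the mitochondrial NAD carrier gene, had 89.3 ± 1.44 and 95.8 ± 2.85 CPM (SD, n = 3), a log2FC of 0.10 (adjusted p = 0.513 in edgeR). Naxd, which repairs hydrated NADH, had 0.23 (adjusted p = 0.266 in edgeR). In the list of lactate dehydrogenases and of shuttles that move NADH equivalents into mitochondria, 9 of 11 genes were positive with a median of 0.09. The partners of the glycerol phosphate shuttle had opposite signs, Gpd1 with 0.22 and Gpd2 with -0.29 (adjusted p = 0.225 and 0.25 in edgeR).

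**Figure D5:**
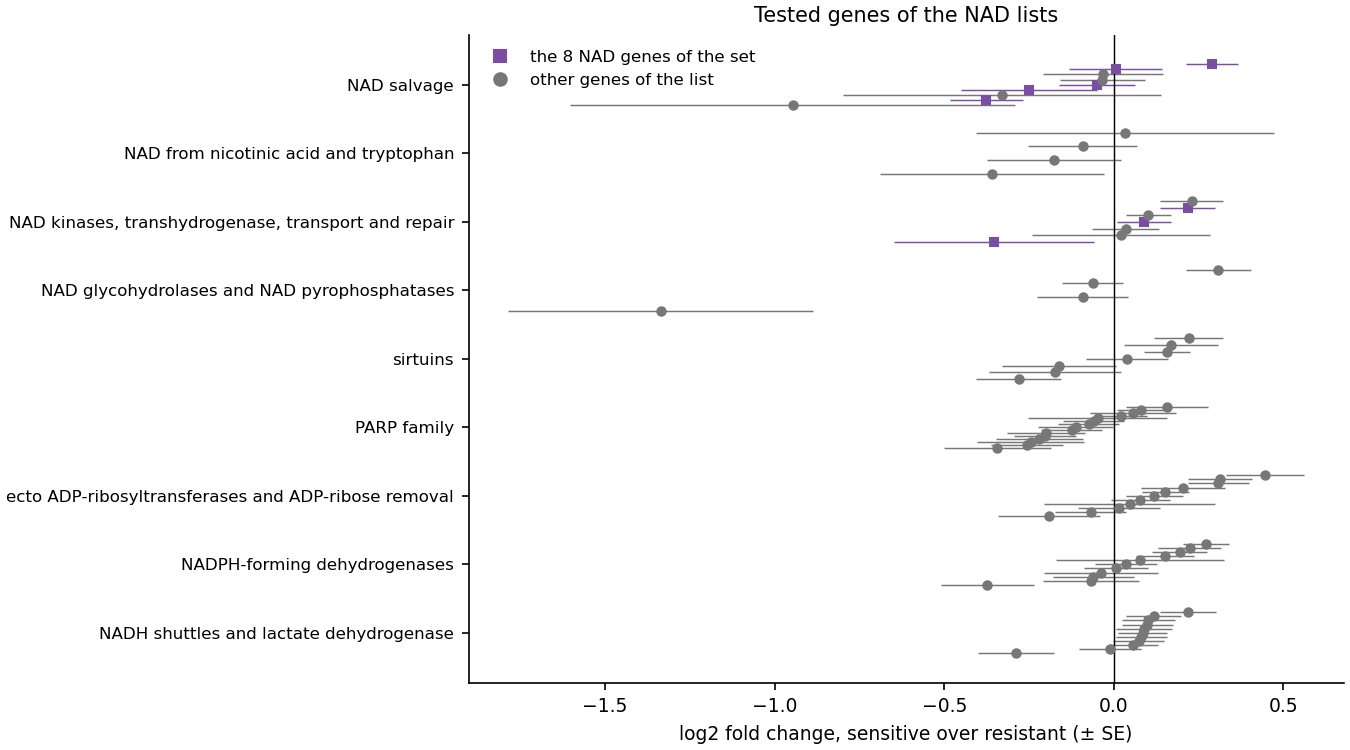
Log2 fold change of sensitive over resistant hearts, with its standard error, for each tested gene of the 9 NAD lists. Purple squares are Nmrk1, Nmrk2, Nampt, Nmnat1, Nmnat3, Nadk, Nadk2 and Nnt, grey circles are the other genes, and values run from -1.34 for Bst1 to 0.45 for Art5.

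Marker genes of 11 cell types were summed in each heart, and in none of these lists did the genotypes separate. No marker of any list was called by edgeR's quasi-likelihood test, where 1.44% of all tested genes were. DESeq2, which called 3.65% of the 11038 genes that it gave an adjusted p, called 4 markers, all lower in sensitive hearts. They were the macrophage markers Mrc1 (log2FC -0.52, adjusted p = 0.00657 in DESeq2) and C1qa (-0.46, 0.0395), the smooth muscle marker Acta2 (-0.45, 0.0339) and the atrial marker Myl7 (-0.55, 0.0186). All 5 macrophage markers had negative log2FC values, from -0.52 to -0.29. The same held for all atrial markers, from -1.68 (Bmp10) to -0.18 (Nppa). All smooth muscle and pericyte markers were negative too, from -0.46 (Cspg4) to -0.001 (Rgs5). Rgs5, with means of 750 and 749 CPM, made up most of that sum. Of the endothelial markers, Kdr (-0.50) and Emcn (-0.31) did not overlap between genotypes, as did not 20.0% of all tested genes. Cdh5 (-0.06), Pecam1 (0.002) and Tie1 (0.12) overlapped. All 4 tested adipocyte markers were positive, from 0.08 (Cidea, most of that sum) to 1.32 (Plin1, without overlap, at 4 to 23 counts). The part of these cell types in the differences of the members was not tested. Fibroblast markers had 748 to 835 CPM in resistant and 746 to 833 CPM in sensitive hearts. Endothelial markers had 802 to 941 and 674 to 847 CPM, and atrial markers 157 to 253 and 140 to 168 CPM. Smooth muscle markers had 938 to 1024 and 858 to 987 CPM, and macrophage markers 153 to 236 and 123 to 156 CPM. Schwann cell markers had 6.48 to 9.36 and 8.39 to 8.78 CPM, and adipocyte markers 21.4 to 24.2 and 20.6 to 31.1 CPM, with Ucp1 at no count in any heart. Erythroid markers varied most between hearts of one genotype, from 401 to 3187 CPM in sensitive hearts, with the highest value in mouse 380.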

How the data were processed

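RNA from 6 whole hearts, 3 per genotype, was sequenced by a company. The authors deposited raw counts of reads per gene, without normalization or pooling. The submitters' processing notes name fastp, STAR, featureCounts and mm10; their versions and the strand setting are not given in the sources used here. The other deposited table holds the authors' own DESeq2 comparison (fold changes, Wald statistics and p-values) and was not used. Of 54532 genes, 53585 have the same coordinates in GENCODE M21 (GRCm38).

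The members and gene lists were chosen with earlier results of these data known. Counts were analysed in R 4.3.3 with edgeR 4.0.16 (TMM, filterByExpr with minimum count 10 and minimum total 15, quasi-likelihood test, Benjamini-Hochberg adjustment over 14866 genes, threshold 0.05). The standard error is the log2 fold change divided by the square root of F, with a prior count of 2 for log2 CPM. Fold changes are sensitive over resistant. The level of 1 gene is not reported here. The lists cover 9 routes or families of NAD metabolism. Genes named were the members, the 2 non-members with the smallest p in each NAD list and any called, the 3 genes nearest Atcayos on each side, and the 3 most like Atcayos and Nmrk2. Hearts of one genotype differed beyond sampling noise, with a chi-square of 6.86 to 13.2 per gene, so each was 1 replicate. Totals of 19309312 to 20470065 counts made 1 count worth 0.0477 to 0.0526 CPM. An exact two-sided permutation test of 3 hearts against 3 cannot go below 0.1. The alternatives were DESeq2 1.42.0, upper-quartile or RLE factors, testing unfiltered genes, a minimum of 10 counts per heart, dropping mitochondrially encoded and hemoglobin genes, a robust prior and leaving out each heart. On simulated data with 200 of 14866 genes changed by 1 on the log2 scale, edgeR recovered 89% and DESeq2 80.5%.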

Additional observations from a re-analysis of the deposited data

How the results depend on the processing

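No paired analysis was possible because the labels give the hearts separate mouse numbers that the genotypes do not share. DESeq2 called 403 genes and 4 NAD genes, no filter on low counts gave 618 and 6, and the robust prior gave 1 NAD gene (Me1), where edgeR gave 214 and 0. Leaving out one heart gave 80 to 158 genes, with 80 and 91 without mice 368 and 369, and 135, 123 and 102 without mice 379, 380 and 381. It gave 0 to 1 NAD genes, the 1 being Art5 without mouse 380. The causes were not tested, except that these fits hold fewer samples. No neighbour within 250 kb of Atcayos was called under any of the 13 alternatives, though DESeq2 gave some neighbours no adjusted p. The sign of each member other than Nmnat1 and Nmnat3 was kept in all 13. Nmnat1 turned positive without mouse 370, and Nmnat3 turned negative with upper-quartile factors and without mice 368, 370, 379 or 381. Of the 10 members, 6 were lower in sensitive hearts, and 7 under 4 alternatives. For low genes such as Nnt, with 41 to 80 counts per heart, depth limits the precision.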
